A study of Mus musculus with 4 samples.

Results

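Sprr2 genes encode small proline-rich proteins of stratified epithelia. The 8 genes described here, Sprr2b, Sprr2d, Sprr2e, Sprr2f, Sprr2g, Sprr2h, Sprr2i and Sprr2k, were chosen by name. Every non-control probe that carried one of these gene names in the scanner files was taken, whatever its measured value. The names themselves were set with earlier results of these data known, and leave out Sprr2a1, Sprr2a2 and Sprr2j-ps. Each gene had 1 probe, which makes 8 of 39429 probes and 8 of 30342 named genes or targets on the array. All 8 probes lie on the plus strand of chromosome 3, between 92121660 and 92237849 (mm9, as the files give it), within 116 kb.

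Keratinocytes, the cells that build the epidermis, were freed with 0.05% collagenase from the skin of newborn C57BL/6 mice and grown for 3 days before a 48 h treatment. The 4 groups were Pla2g2f-/- cells given 1 mM CaCl2, Pla2g2f-/- cells without added CaCl2, Pla2g2f+/+ cells given 1 mM CaCl2 and Pla2g2f+/+ cells without it. The product of Pla2g2f is a phospholipase A2 that cells secrete and that frees fatty acids from phospholipids, and added calcium is the usual signal that makes cultured keratinocytes differentiate. Each group was 1 RNA sample on 1 array, with RNA pooled from the cells of 6 mice per genotype, so that a difference between genotypes and a difference between the 2 pools of mice cannot be told apart. The differences below therefore carry no p-value and could not be checked in replicates. The ± values are the scanner software's own error for a spot, which covers the measurement of that spot and neither the spread between cultures nor that between mice.

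Between 67.0% and 68.6% of probes were well above background on each array, a flag the scanner software sets, and no spot was saturated. The median gene was lower in Pla2g2f-/- than in Pla2g2f+/+ cells by 0.18 log2 without calcium (-0.18) and by a similar amount with it (-0.16), and the Sprr2 differences below are to be read against that shift. Pla2g2f itself had a signal of 8.66% and 7.29% of the array's 75th percentile in Pla2g2f-/- cells with and without calcium, and of 12.2% and 9.82% in Pla2g2f+/+ cells. The labels do not say which part of the gene was deleted, so this probe checks nothing about the genotype. Basal keratinocyte markers, such as Krt5 and Krt14, were well above background on every array (10 of 10).

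Small proline-rich proteins are building blocks of the cornified envelope, the cross-linked protein shell that replaces the plasma membrane of a dying keratinocyte. Transglutaminases join their glutamine- and lysine-rich ends to each other and to loricrin and involucrin, and the proline-rich repeats between those ends act as short bridges. Their genes sit with those of loricrin, involucrin and the late cornified envelope (Lce) proteins in the epidermal differentiation complex, and Sprr2 genes are known to be switched on both in differentiating and in injured or inflamed epithelia. Sprr2g is named as a non-coding RNA in the array's annotation and as a transcribed pseudogene in RefSeq, so its signal is a transcript level and not that of a known envelope protein.

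The Sprr2 genes are close copies, so the probes were first compared with each other. None of the 28 pairs of member probes had the same 60 bases. The longest run of identical bases in any pair was 15, in Sprr2f and Sprr2h (ACATTTTTCAAATCT, all of it shared), and the median over pairs was 8. The most alike by local alignment were Sprr2d and Sprr2e, with 43 identical bases among 49 aligned and 10 gap positions. Outside the 8 genes, the probe of the pseudogene Sprr2j-ps shared a run of 18 bases with that of Sprr2i. A Sprr2a2 probe shared 15 with those of Sprr2d and Sprr2e. Transcript sequences were not used here, so how far a probe also binds the transcript of a neighbouring copy is unknown. No probe's level is set against another probe's, only against its own on the other arrays.

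The stretch before the transcript start was also alike, and is shown for 5 genes: Sprr2e and Sprr2d, the most alike pair, which both responded strongly in Pla2g2f+/+ cells, Sprr2f, which responded least there, Sprr2h, which responded by about the same fold in both genotypes, and Sprr2k, which rose at least 2-fold in Pla2g2f+/+ cells but not in Pla2g2f-/- cells. Each is the 250 bases before the start (RefSeq, GRCm38.p6), with matches to TGANTCA, ATTTGCAT and TATAAA in capitals.
Sprr2d, chr3:92338890-92339139, + strand: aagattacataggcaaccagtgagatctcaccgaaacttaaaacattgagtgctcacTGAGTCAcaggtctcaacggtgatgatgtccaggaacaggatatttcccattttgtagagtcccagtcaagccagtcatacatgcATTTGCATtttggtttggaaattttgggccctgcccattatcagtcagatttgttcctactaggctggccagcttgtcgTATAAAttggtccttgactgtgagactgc
Sprr2e, chr3:92351893-92352142, + strand: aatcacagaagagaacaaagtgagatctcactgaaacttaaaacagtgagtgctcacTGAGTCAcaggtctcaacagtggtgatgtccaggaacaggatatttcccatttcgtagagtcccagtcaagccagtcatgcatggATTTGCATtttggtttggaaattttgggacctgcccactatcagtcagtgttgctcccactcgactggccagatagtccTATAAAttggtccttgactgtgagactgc
Sprr2f, chr3:92364937-92365186, + strand: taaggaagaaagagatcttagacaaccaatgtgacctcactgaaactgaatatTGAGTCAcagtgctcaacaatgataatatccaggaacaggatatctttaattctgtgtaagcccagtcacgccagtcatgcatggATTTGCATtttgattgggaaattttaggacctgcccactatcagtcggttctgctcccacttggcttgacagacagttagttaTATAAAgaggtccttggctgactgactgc
Sprr2h, chr3:92385435-92385684, + strand: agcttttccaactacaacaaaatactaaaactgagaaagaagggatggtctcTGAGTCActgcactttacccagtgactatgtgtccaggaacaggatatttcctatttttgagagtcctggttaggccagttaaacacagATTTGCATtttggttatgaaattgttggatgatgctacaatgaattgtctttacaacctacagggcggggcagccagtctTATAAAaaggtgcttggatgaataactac
Sprr2k, chr3:92432332-92432581, + strand: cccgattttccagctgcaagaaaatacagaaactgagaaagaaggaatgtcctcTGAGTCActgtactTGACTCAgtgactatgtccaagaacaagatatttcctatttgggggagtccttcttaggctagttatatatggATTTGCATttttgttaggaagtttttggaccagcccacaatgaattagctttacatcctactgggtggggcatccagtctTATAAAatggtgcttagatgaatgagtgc

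All 7 Sprr2 genes with an entry in the promoter table, Sprr2g having none, held the same 3 motifs in the same order and at nearly the same place. TGANTCA, the letters of an AP-1 site, began between positions -198 and -193 counted from the start, with a further match in Sprr2k at position -182. ATTTGCAT, the octamer that POU factors bind, began between -112 and -108, and TATAAA at -29 in every one of the 7. Searched on both strands in the same 250-base window of 32851 promoters, TGANTCA was present in 6.75%, ATTTGCAT in 1.6% and TATAAA in 12.4%. TTCNNNGAA (STAT) and the consensus of the interferon-stimulated response element were in none of the 7, against 7.02% and 2.98% of all promoters. No 2 matches overlapped in these windows. These are matches of letters and not binding sites, and the motifs were chosen with the sequences already seen. Sprr2f, Sprr2h and Sprr2k held all 3, as Sprr2d and Sprr2e did. Over the aligned bases of 2 promoters the identity was 90.3% for Sprr2d with Sprr2e, 81.9% for Sprr2h with Sprr2k and 70.0% for the least alike pair, Sprr2i with Sprr2k.

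**Figure D1:**
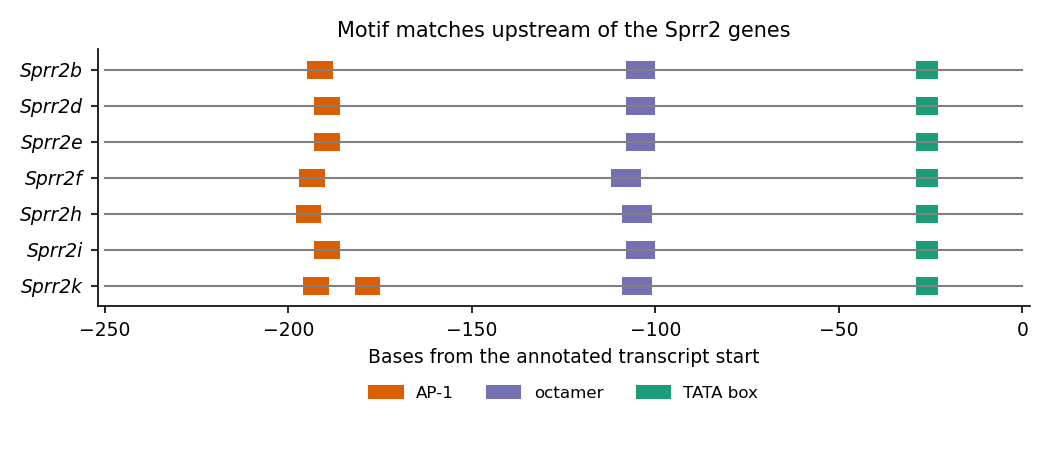
Matches to the AP-1, octamer and TATA box motifs (orange, violet and green) in the 250 bases before the annotated start of 7 Sprr2 genes, as bases from the start on the x axis and 1 gene per line. The 3 kinds of match line up across the genes, and Sprr2k has a second AP-1 match.

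All 4 arrays measured 7 of the 8 genes well above background. The exception was Sprr2b, with 0.764% and 0.238% of the 75th percentile in Pla2g2f-/- cells with and without calcium and 0.589% and 0.335% in Pla2g2f+/+ cells, not well above background on any array, so that no difference is given for it. The lowest signal well above background was 1.22% and 1.08% of the 75th percentile on the Pla2g2f-/- arrays with and without calcium, and 1.35% and 1.49% on the Pla2g2f+/+ arrays.

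Most Sprr2 transcripts were higher with calcium in both genotypes, with a smaller response in Pla2g2f-/- cells for every measured gene but Sprr2h. There, 5 of 7 measured genes were at least 2-fold higher with calcium, with a median of 1.27 log2 (2.41-fold), and in Pla2g2f+/+ cells 6 of 7 were, with a median of 2.78 log2 (6.85-fold). Among all genes compared, 2.99% were at least 2-fold higher in Pla2g2f-/- cells and 2.47% in Pla2g2f+/+ cells, with medians of -0.03 and -0.07. With normexp background correction the response of Sprr2e in Pla2g2f-/- cells was 0.86 log2, under 2-fold. No member was at least 2-fold lower with calcium in either genotype, against 0.602% and 1.01% of all genes.

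Sprr2d, Sprr2e and Sprr2g formed the group with the strongest response in Pla2g2f+/+ cells. The Sprr2d signal was 32.2 ± 3.24% of the 75th percentile in Pla2g2f-/- cells with calcium, 13.3 ± 1.36% in Pla2g2f-/- cells without, 496 ± 49.6% in Pla2g2f+/+ cells with calcium and 35.4 ± 3.56% in Pla2g2f+/+ cells without. So the calcium-treated Pla2g2f+/+ cells stood far above the other 3 groups, and Pla2g2f-/- cells with calcium were level with untreated Pla2g2f+/+ cells within the scanner error (-0.13 log2). Scaled to basal keratinocyte markers, Pla2g2f-/- cells with calcium were 1.74-fold higher. These markers were themselves lower with calcium (median -0.66 log2 in Pla2g2f-/- and -0.52 in Pla2g2f+/+ cells). That setting therefore raises each value of treated against untreated cells, here and below. The response of Sprr2d was 2.41-fold in Pla2g2f-/- cells (1.27 ± 0.21 log2) and 14.0-fold in Pla2g2f+/+ cells (3.81 ± 0.20).

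Sprr2e had 6.97 ± 0.757% with and 2.58 ± 0.368% without calcium in Pla2g2f-/- cells, and 99.1 ± 9.91% with and 4.94 ± 0.617% without calcium in Pla2g2f+/+ cells. This was the steepest response of the family in Pla2g2f+/+ cells, 20.1-fold (4.33 ± 0.23 log2), and ranked 24 from the top of 21128 genes. In Pla2g2f-/- cells it was 2.70-fold (1.43 ± 0.26). The signal of Sprr2g was 159 ± 15.9% with and 73.8 ± 7.38% without calcium in Pla2g2f-/- cells, and 1448 ± 145% with and 91.1 ± 9.12% without in Pla2g2f+/+ cells. Its untreated levels in the 2 genotypes were close, whereas its response was 2.16-fold (1.11 ± 0.20 log2) in Pla2g2f-/- and 15.9-fold (3.99 ± 0.20) in Pla2g2f+/+ cells.

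Sprr2i lay between these and the rest. It had 21.8 ± 2.19% with and 8.49 ± 0.882% without calcium in Pla2g2f-/- cells, and 87.9 ± 8.80% with and 12.8 ± 1.33% without in Pla2g2f+/+ cells. Calcium-treated Pla2g2f-/- cells were above the untreated Pla2g2f+/+ level here (0.76 log2), as they were for Sprr2e (0.50) and Sprr2g (0.80). With normexp background correction the Sprr2e value was only 0.20. For Sprr2k (-0.99) and Sprr2f (-1.68) the treated Pla2g2f-/- cells were below that level. Scaled to basal keratinocyte markers, those 2 values were -0.06 and -0.75. The response of Sprr2i was 2.56-fold (1.36 ± 0.21 log2) in Pla2g2f-/- and 6.85-fold (2.78 ± 0.21) in Pla2g2f+/+ cells.

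Sprr2h was the member whose response was about the same in both genotypes. Its signal was 1924 ± 192% with and 503 ± 50.3% without calcium in Pla2g2f-/- cells, against 8234 ± 823% with and 2406 ± 241% without in Pla2g2f+/+ cells. The response was 3.83-fold (1.94 ± 0.20 log2) in Pla2g2f-/- cells and 3.42-fold (1.78 ± 0.20) in Pla2g2f+/+ cells. Pla2g2f-/- cells with calcium were 0.32 log2 below untreated Pla2g2f+/+ cells (-0.32), an order that turned to 0.61 with scaling to basal keratinocyte markers.

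Sprr2k and Sprr2f had calcium responses close to or within the scanner error in Pla2g2f-/- cells. Sprr2k had 8.30 ± 0.879% with and 9.66 ± 1.000% without calcium in Pla2g2f-/- cells, a change of -0.22 ± 0.21 log2, and 67.5 ± 6.76% with and 16.4 ± 1.68% without in Pla2g2f+/+ cells, a 4.11-fold rise (2.04 ± 0.21). The signal of Sprr2f was 1.67 ± 0.327% with and 1.96 ± 0.318% without calcium in Pla2g2f-/- cells, little above the lowest level that counts as above background. In Pla2g2f+/+ cells it was 7.76 ± 0.834% with and 5.37 ± 0.644% without. Its change was -0.23 ± 0.37 log2 in Pla2g2f-/- cells and 0.53 ± 0.23 in Pla2g2f+/+ cells, both under 2-fold.

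**Figure D2:**
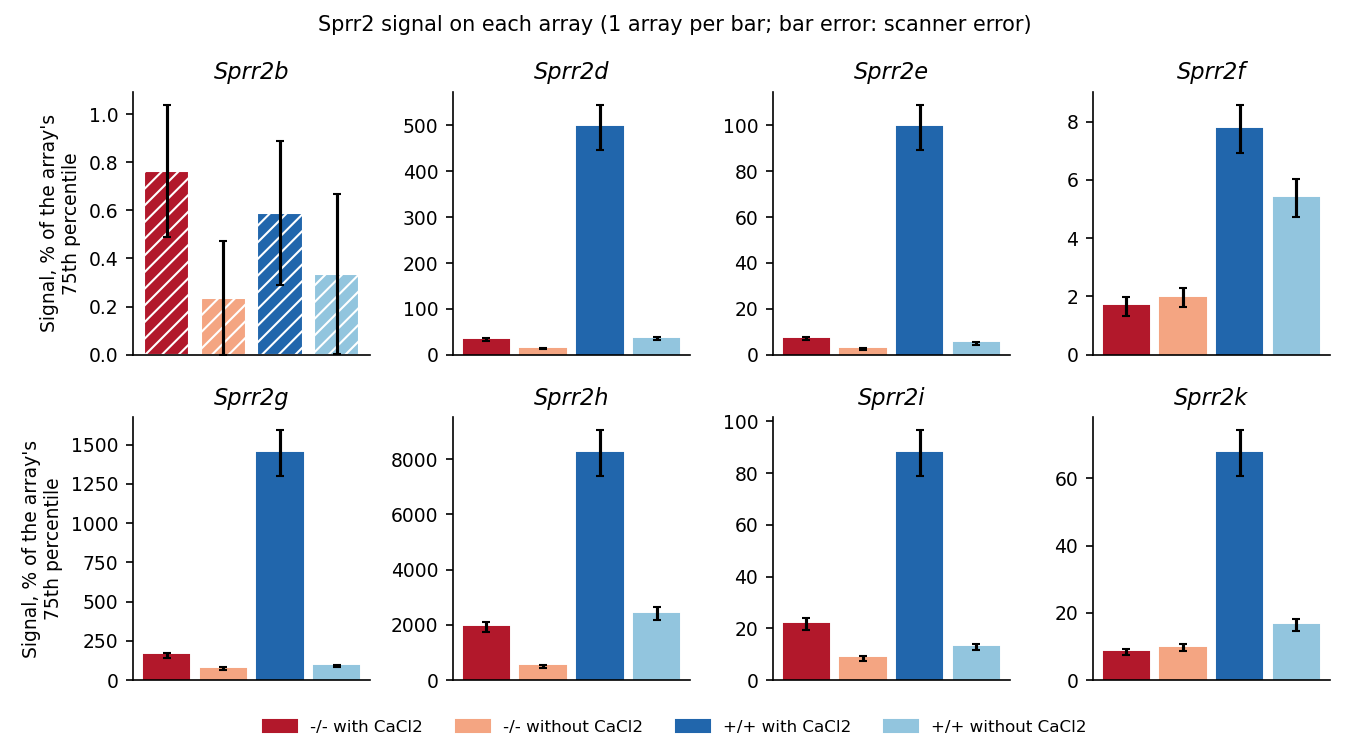
Signal of each of the 8 Sprr2 genes on the 4 arrays as a percentage of the array's 75th percentile, with a separate linear axis per gene from 0, 1 array per bar and the scanner error as the error bar. Hatched bars (Sprr2b) are not well above background. For the other 7 genes the Pla2g2f+/+ array with CaCl2 is the highest.

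**Figure D3:**
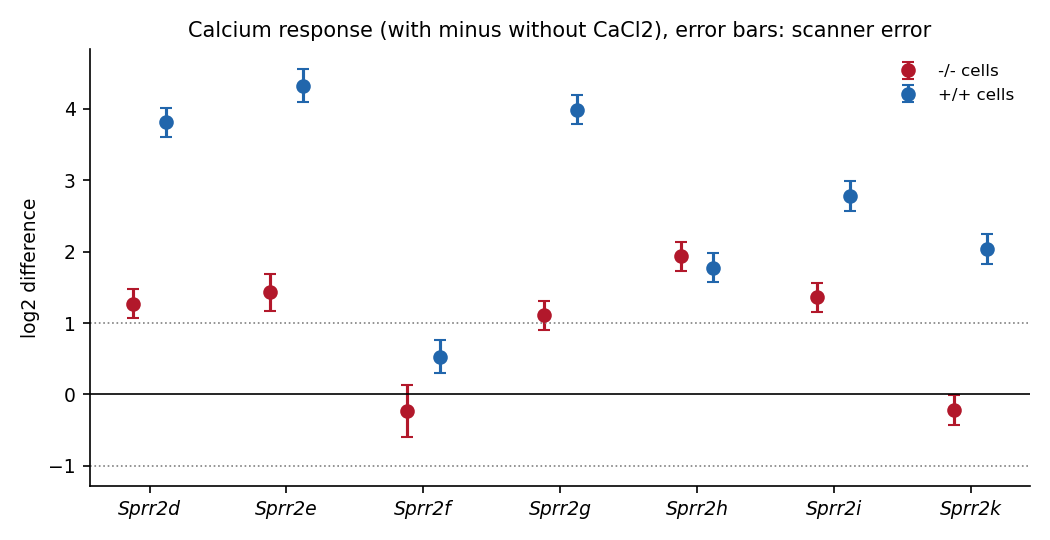
Log2 calcium response (with minus without CaCl2) of the 7 measured Sprr2 genes in Pla2g2f-/- and Pla2g2f+/+ cells, with the combined scanner error, and dotted lines at 2-fold. Sprr2h is the only gene whose Pla2g2f-/- response (1.94) is not below its Pla2g2f+/+ response (1.78).

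The difference of the 2 responses, Pla2g2f-/- minus Pla2g2f+/+, was at least 2-fold below 0 for 5 of the 7 genes, with a median of -2.26 log2. Of all 19225 genes well above background on every array 0.629% were, and the median of all was 0.02. The differences were -2.89 ± 0.35 for Sprr2e, -2.88 ± 0.29 for Sprr2g, -2.54 ± 0.29 for Sprr2d, -2.26 ± 0.30 for Sprr2k and -1.42 ± 0.29 for Sprr2i. Sprr2e and Sprr2g ranked 7 and 9 from the lowest. For Sprr2f the difference was -0.76 ± 0.43 and for Sprr2h 0.16 ± 0.29.

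Without calcium every measured Sprr2 gene had a lower signal in Pla2g2f-/- than in Pla2g2f+/+ cells, but to an unequal degree. At least 2-fold lower were 3 of 7, against 4.32% of all genes compared, and the median was -0.94 log2, against -0.18. Sprr2h differed the most, at 4.79-fold lower (-2.26 ± 0.20 log2; rank 39 from the lowest of 21345 genes), followed by Sprr2f (2.74-fold lower, -1.45 ± 0.29) and Sprr2d (2.65-fold lower, -1.41 ± 0.21). Sprr2e (-0.94 ± 0.27), Sprr2k (-0.77 ± 0.21) and Sprr2i (-0.60 ± 0.21) were less than 2-fold lower. The value for Sprr2g, -0.30 ± 0.20, was close to the median gene. With normexp background correction Sprr2f was at -0.96, under 2-fold. No member was at least 2-fold higher, against 4.65% of all genes. That all 7 lay below 0 is to be read against 67.5% of all genes lying below 0.

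With calcium all 7 measured genes were at least 2-fold lower in Pla2g2f-/- cells, also under every alternative run at that threshold. Of all genes compared 3.05% were, and the median was -3.02 log2 (8.14-fold lower), against -0.16, with 63% of all genes below 0. No member was at least 2-fold higher, against 6.56% of all genes. Sprr2d was 15.4-fold lower (-3.94 ± 0.20 log2) and Sprr2e 14.2-fold lower (-3.83 ± 0.21), and these were ranks 2 and 3 from the lowest among 21564 genes. Sprr2g was 9.10-fold lower (-3.19 ± 0.20; rank 7) and Sprr2k 8.14-fold lower (-3.02 ± 0.21; rank 16). The 3 genes Sprr2f, Sprr2h and Sprr2i were 4.64-fold, 4.28-fold and 4.04-fold lower. The value for Sprr2f was -2.21 log2, and -1.38 with normexp background correction, while basal keratinocyte scaling gave -1.63 for Sprr2h and -1.55 for Sprr2i. At least 2-fold lower both with and without calcium were Sprr2d, Sprr2f and Sprr2h, as were 1.11% of the 20699 genes compared in both. The responses and the genotype differences come from the same 4 arrays, so they are not separate evidence.

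**Figure D4:**
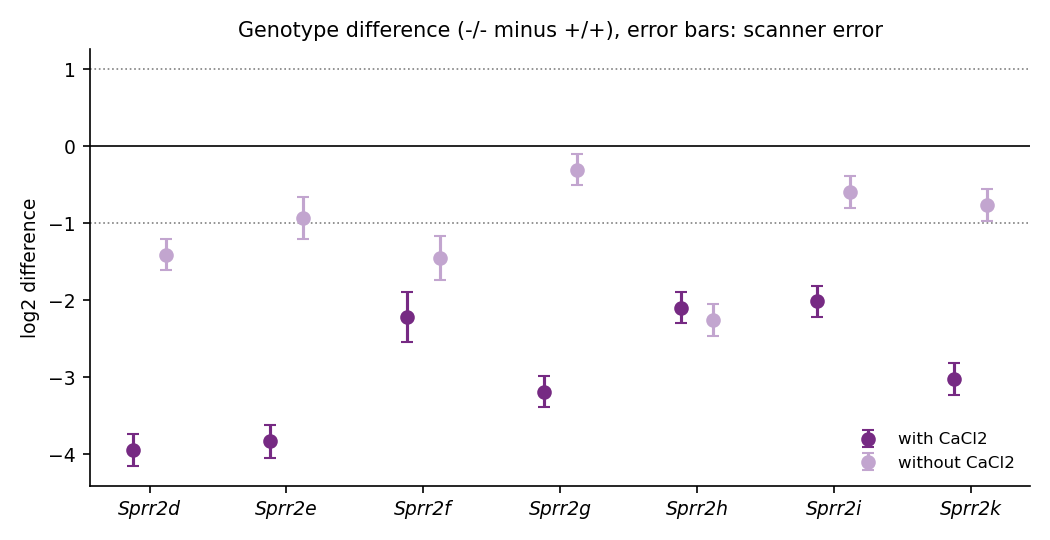
Log2 genotype difference (Pla2g2f-/- minus Pla2g2f+/+) of the 7 measured Sprr2 genes with and without CaCl2, with the combined scanner error, and dotted lines at 2-fold. With CaCl2 all 7 lie between -3.94 and -2.01, and without it between -2.26 and -0.30, and only for Sprr2h do the 2 values lie within their errors.

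Around the cluster, the nearest Sprr2 pseudogene differed between genotypes as the members did, and the other measured Sprr genes did so less or not at all. Sprr2j-ps, which lies between Sprr2i and Sprr2k and is not among the 8, had 19.1% with and 12.4% without calcium in Pla2g2f-/- cells, against 246% with and 68.3% without in Pla2g2f+/+ cells, and so was 12.9-fold and 5.52-fold lower in Pla2g2f-/- cells. At lower coordinates Sprr2a2 had 3 probes that disagreed: the brightest changed by -0.24 and -0.04 log2 with calcium in Pla2g2f-/- and Pla2g2f+/+ cells, while both others rose, by 0.77 and 0.80 in Pla2g2f-/- and by 1.26 each in Pla2g2f+/+ cells. All 3 differed by less than 2-fold between genotypes, at -0.25 (the brightest), -0.20 and -0.02 with calcium and at -0.06, 0.25 and 0.47 without, in the same order of probes. The sign of the brightest probe's value with calcium turned under quantile scaling (0.04) and basal keratinocyte scaling (0.21). The probe carrying the name Sprr2a1 was not well above background on any array. At higher coordinates, Sprr1b was 4.22-fold higher with calcium in Pla2g2f-/- and 5.54-fold in Pla2g2f+/+ cells, and its genotype difference was -0.54 log2 with and -0.15 without calcium.

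The other small proline-rich genes followed different courses. Sprr1a had 3821% with and 524% without calcium in Pla2g2f-/- cells, and 3958% with and 239% without in Pla2g2f+/+ cells, so that its treated levels were close and its untreated level was 2.20-fold higher in Pla2g2f-/- cells. Sprr4 was 3.72-fold higher in Pla2g2f-/- than in Pla2g2f+/+ cells with calcium and 3.29-fold higher without. Sprr3 was not well above background on any array. Of the 3 measured Sprr genes outside Sprr2, Sprr4 was thus higher in Pla2g2f-/- cells in both comparisons.

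The Lce genes, which lie in the same gene complex, also had weaker responses in Pla2g2f-/- cells, but their untreated levels differed from the Sprr2 pattern. With calcium, 15 of 19 Lce genes were at least 2-fold lower in Pla2g2f-/- cells (median -1.42 log2), where 7 of 7 measured Sprr2 members and 3.05% of all genes were. Without calcium, 15 of 19 Lce genes were above 0 and 7 were at least 2-fold higher in Pla2g2f-/- cells (median 0.83), the latter against 4.65% of all genes. Of the 7 measured Sprr2 members 0 were above 0, and of all 21345 genes 6638 were. Sprr2a2, a Sprr2 gene outside the members, had probes at -0.06, 0.25 and 0.47 there. Basal keratinocyte scaling gave 18 Lce genes above 0 and 12 at least 2-fold higher without calcium. The median response of 19 Lce genes was 1.35 log2 in Pla2g2f-/- and 4.29 in Pla2g2f+/+ cells. Loricrin (Lor), the main envelope protein, was 2.54-fold lower in Pla2g2f-/- cells with calcium and differed by 0.34 log2 without, and involucrin (Ivl), an early envelope scaffold, differed by -0.46 and -0.95. Of 13 measured envelope genes outside the Sprr and Lce families, these included, 3 were at least 2-fold lower and 2 higher with calcium. Of 3 cross-linking genes 1 was lower and 1 higher. Scaled to basal keratinocyte markers, 8 of 19 Lce genes were at least 2-fold lower with calcium (median -0.96), and the values with calcium were -0.88 for Lor and 0.0041 for Ivl. With 1 array per group, the contrast between Sprr2 and Lce genes was not tested.

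**Figure D5:**
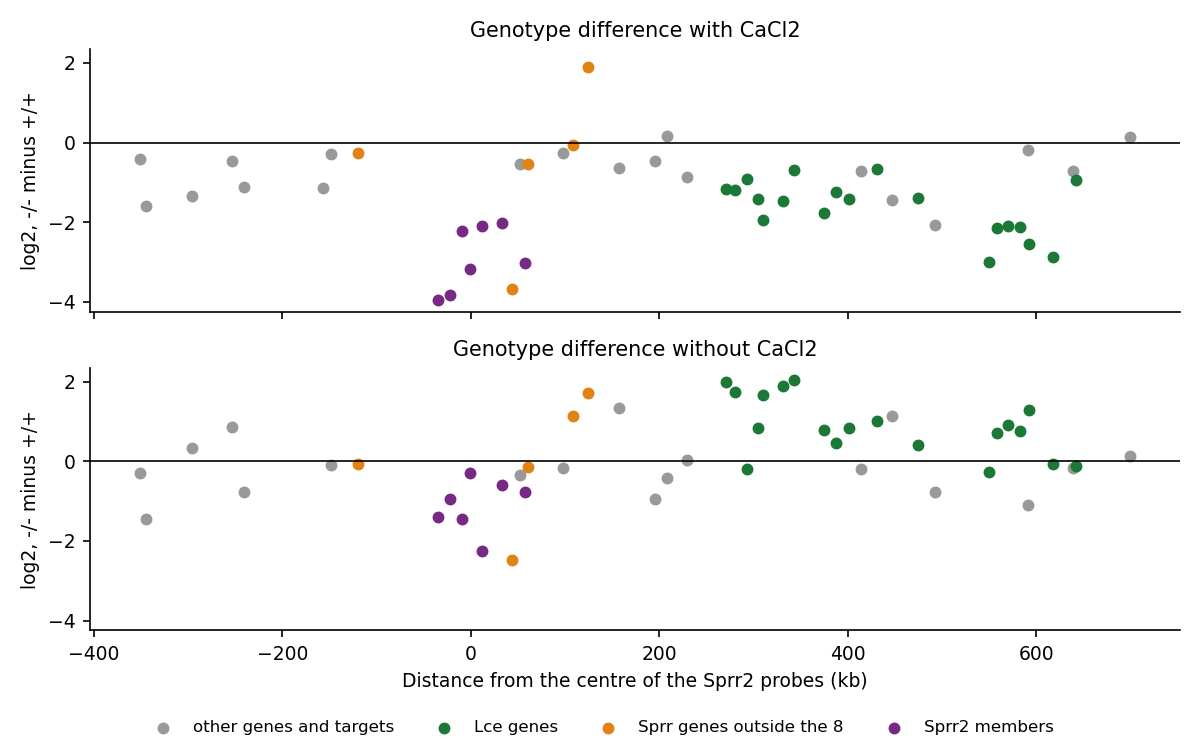
Log2 genotype difference (Pla2g2f-/- minus Pla2g2f+/+) with CaCl2 (upper) and without (lower) of genes and targets around the Sprr2 cluster, against distance in kb from the centre of the Sprr2 probes. Sprr2 members lie below 0 in both panels, whereas 15 of 19 Lce genes lie above 0 without CaCl2 and none does with it.

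Genes whose products are known or thought to act on Sprr2 or other envelope promoters were read beside them. With calcium, 7 of 31 were at least 2-fold lower and 4 at least 2-fold higher in Pla2g2f-/- cells, against 3.05% and 6.56% of all genes. The epithelial ETS factor Elf3 was lower (-1.66 log2), as were the AP-1 subunit Fosl1 (-1.47) and Grhl3 (-1.31), a factor of barrier formation. Klf4, another barrier factor, had -0.39, Nfe2l2, which encodes the oxidative stress regulator NRF2, -0.22 and Stat3 0.02. Without calcium Fosl1 was also at least 2-fold lower in Pla2g2f-/- cells (-1.08), and Elf3 (-0.50), Grhl3 (-0.34), Klf4 (-0.22), Nfe2l2 (-0.32) and Stat3 (0.06) were not. Scaled to basal keratinocyte markers, Grhl3 was at -0.85 with and Fosl1 at -0.82 without calcium, and the values with calcium of Klf4 (0.07) and Nfe2l2 (0.25) turned positive. Pou2f3, an octamer-binding factor of the epidermis named here after its values were seen, had -0.38 with and -0.85 without calcium. Its signal was 1.60% to 2.90% of the 75th percentile, little above the lowest level that counts as above background. Of 11 measured NRF2 target genes, 2 were at least 2-fold higher and 2 lower in Pla2g2f-/- cells with calcium, and of 13 keratinocyte activation genes 0 were higher and 4 lower.

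The genes most like the Sprr2 family were sought by centring each gene on its mean over the 4 arrays and taking the root mean square difference from the mean Sprr2 profile, among 19213 genes outside the Sprr families. The nearest were the cytochrome P450 gene Cyp3a13 (0.35 log2), 2310050C09Rik (0.42), the epidermal lipoxygenase gene Aloxe3 (0.44), the phosphatase gene Dusp14 (0.48) and Ankrd22 (0.50). The members, which make up that mean, ranged between 0.38 (Sprr2i) and 0.89 (Sprr2f). Since the genes named were picked as the nearest of all 19213, their distances and those of the members are not comparable. Cyp3a13 had 33.2% with and 16.9% without calcium in Pla2g2f-/- cells, and 194% with and 56.4% without in Pla2g2f+/+ cells. Aloxe3 had 61.5% and 32.4% in Pla2g2f-/- cells, and 221% and 58.8% in Pla2g2f+/+ cells. With 4 arrays such a likeness is a description of these samples.

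Markers of some other skin cells differed between the same arrays. The summed level of 9 mast cell markers, in multiples of the 75th percentile, was 11.51 and 11.6 in Pla2g2f-/- cells with and without calcium, and 1.68 and 1.53 in Pla2g2f+/+ cells, with 7 to 8 of them well above background. For 9 adipocyte markers it was 113 and 139.6, against 28.0 and 41.9. For 13 myeloid markers it was 45.4 and 34.0, against 8.89 and 10.9, and for 10 fibroblast markers 237 and 221, against 134 and 151 (Col1a1 was left out of all 4 sums, since its spot was an outlier on the untreated Pla2g2f-/- array). Their part in the Sprr2 differences was not tested. Ms4a2, Lep and Cd207 were not well above background on any array. Among the other lists, spinous keratinocyte markers (8) summed to 28.5 with and 6.56 without calcium in Pla2g2f-/- cells, against 29.4 and 3.87 in Pla2g2f+/+ cells. Melanocyte markers (7) summed to 36.6 and 44.9, against 48.4 and 42.9, and hair follicle markers (10) to 13.7 and 13.9, against 19.1 and 17.5. Endothelial markers (5) summed to 1.82 and 1.87, against 2.88 and 2.56, and T cell markers (5) to 1.30 and 1.37, against 1.82 and 1.82. In these lists too some genes were not well above background on any array. They were Calml3 (spinous), Krt25, Krt27 and Krt33a (hair follicle), and Cd3d, Cd3g and Cd8a (T cell). Only 2 T cell markers were well above background. Basal keratinocyte markers summed to 283 and 358 in Pla2g2f-/- cells, and to 394 and 431 in Pla2g2f+/+ cells. In such bulk RNA fewer keratinocytes and less transcript per keratinocyte cannot be told apart. The arrays were also scaled to the basal keratinocyte markers, a setting added after the data were seen. The median Sprr2 genotype difference was then -2.56 log2 with calcium, with 7 of 7 genes at least 2-fold lower, and -0.68 without. In that setting 230 of 21564 genes were at least 2-fold lower with calcium. The median of all genes was 0.31 with and 0.07 without it.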

How the data were processed

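The 4 keratinocyte RNA samples (200 ng each, per the labels) were hybridised to 1-colour arrays, 1 per group. The deposited intensity signals were made by the authors with Agilent Feature Extraction 11.5.1.1, per the submitters' processing notes and the file headers, which record background subtraction and detrending inside an array, and nothing that scales one array to another. The deposited series table is a ratio: it equals each intensity divided by 1 constant per array, near the 75th percentile, within 2.3e-07 in relative terms. Its medians were 0.0645, 0.0612, 0.0623 and 0.0660 for Pla2g2f-/- cells with and without calcium and Pla2g2f+/+ cells with and without calcium.

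Here, 105 to 116 outlier spots per array were dropped, spots of a probe were averaged, and each log2 intensity was taken relative to the 75th percentile of its array (3299, 2889, 2737 and 2638 units in the same order, from 43020 spots that were no controls). Probes were named through their accession (27502 of 39429) or kept the file's name, and a gene was read from its brightest probe. A gene was compared where well above background on 1 or both arrays, with a lower bound where 1 was dim, and counted at 2-fold. The response difference used genes well above background on all 4 arrays. The median SD of log2 signal over repeat spots was 0.0685 to 0.0739, and precision is limited by having 1 array per group, for which reason there are no tests. The code was tested on simulated data. The members, lists and naming rule (all members, 4 other Sprr genes, 8 fixed envelope and regulator genes and the 5 nearest profiles) were chosen with earlier results of these data known. Alternatives were normexp correction (offset 50), quantile scaling, scaling on a median of bright probes, the authors' table, the mean of a gene's probes, 2 other filters and a 3-fold threshold, plus scaling to basal keratinocyte markers, added after seeing the data. Software was Python 3.11.15, numpy 2.4.6, pandas 2.3.3, Biopython 1.88, R 4.3.3 and limma 3.58.1.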

Additional observations from a re-analysis of the deposited data

Results flagged for a closer look

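Calcium responses of opposite sign in the 2 genotypes were found for 2 members, and in each case the difference was not tested, with 1 array per group. Sprr2k changed by -0.22 log2 with calcium in Pla2g2f-/- cells and by 2.04 in Pla2g2f+/+ cells. For Sprr2f the values were -0.23 in Pla2g2f-/- cells and 0.53 in Pla2g2f+/+ cells, and its Pla2g2f-/- levels lay just above the lowest signal that counts as above background. The Pla2g2f-/- values of both genes turned positive when the arrays were scaled to basal keratinocyte markers (0.46 for Sprr2k and 0.45 for Sprr2f). Those markers were themselves lower with calcium in Pla2g2f-/- cells (median -0.66 log2, 10 of 10 below 0), which raises every response in that setting.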

How the results depend on the processing

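No paired analysis was possible because each group is 1 array. Of 280 values of single members under the alternatives, 244 moved by no more than the scanner error, 36 by more, and 0 of those at least 2-fold changed sign. Many of the 244 could not move. Each member had 1 probe and every measured member was well above background on all arrays. The mean of a gene's probes and the 2 other filters therefore left single members unchanged by construction. The authors' table differed only by a constant per array, so it was hardly a separate check. The number of members past 2-fold in each comparison stayed within 1.5 times under every alternative run except the 3-fold threshold. That threshold left 1 gene higher with calcium in Pla2g2f-/- cells and 1 lower without calcium in Pla2g2f-/- cells, by its own construction. Medians moved by more than the scanner error in these cases. Normexp correction gave 2.50 log2 for the Pla2g2f+/+ response, and -2.66 with and -0.66 without calcium for the genotype differences. Without the filter on dim probes, which adds Sprr2b, the Pla2g2f+/+ response was 2.41, the genotype difference with calcium -2.62 and the response difference -1.84. Scaling to basal keratinocyte markers gave responses of 1.95 in Pla2g2f-/- and 3.24 in Pla2g2f+/+ cells, and genotype differences of -2.56 with and -0.68 without calcium. It moved the median of all genes to 0.65 and 0.39 in the responses and to 0.31 and 0.07 in the genotype differences. The basal markers themselves had medians of -0.66 and -0.52 log2 in the responses, and of -0.38 with and -0.25 without calcium between genotypes. Since this scaling moves all genes by nearly the same amount in a comparison, the shifts follow from its construction. Why the markers differed was not tested. Among genes past 2-fold, those that were higher made up 83.2% in the Pla2g2f-/- response (73.1% with quantile and 99.5% with basal scaling), 70.9% in the Pla2g2f+/+ response (44.7% without the filter and 95.2% with basal scaling) and 75.2% in the response difference (50.4% with quantile and 91.1% with basal scaling). In the genotype differences they made up 68.2% with calcium (61.4% without the filter and 92.5% with basal scaling) and 51.8% without (30.9% without the filter, 49.6% with the mean of probes and 78.6% with basal scaling). Signal close to background limits Sprr2f and leaves Sprr2b without a difference.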
